A study of Mus musculus with 7 samples.

Results

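The replication-dependent histone genes encode the H1, H2A, H2B, H3 and H4 proteins that a cell makes in bulk while it copies its DNA. They were taken as the protein-coding entries of the gene table whose symbol begins with Hist1h, Hist2h, Hist3h or Hist4h, which gave 67 genes of the 55487 listed. Another 3 entries with such symbols were pseudogenes and were not counted as members. By class, 6 encode H1, 18 H2A, 18 H2B, 12 H3 and 13 H4, and 54 of the 67 lie on chromosome 13, 10 on chromosome 3, 2 on chromosome 11 and 1 on chromosome 6.

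The libraries were made from total RNA of primary mouse tumours, grown from a luciferase-carrying 4T1 mammary carcinoma line (4T1-12b) in the mammary fat pad of wild-type BALB/c mice. At about 150 mm3 the tumours received 50 µl injections every other day, 6 in all, of saline (3 libraries), of small extracellular vesicles from DMSO-treated 4T1 cells (Cont sEV, 1 library) or of vesicles from 4T1 cells made senescent with 100 ng/ml nocodazole (TIS sEV, for therapy-induced senescence, 3 libraries). Donor cells of both vesicle kinds were treated for 72 h, and all tumours are labelled day 12. Host and tumour cells were sequenced together, in a bulk sample in which fewer cells of a type and less RNA per cell cannot be told apart. The vesicle columns of the table carry abbreviations, CE and NcE, which were read as control and nocodazole vesicles. The labels do not spell this reading out, and every vesicle comparison rests on it. Nothing in the labels ties each replicate to its own mouse, so the p-values describe the spread between libraries, which may be technical.

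Most animal mRNAs end in a poly(A) tail. Replication-dependent histone mRNAs instead end just after a short hairpin, the histone stem-loop, which is bound by the stem-loop binding protein Slbp and recognised with the help of the U7 small nuclear ribonucleoprotein, and their level is high in S phase and falls when DNA synthesis stops. Replacement histones such as H3.3, in contrast, are made throughout the cell cycle from polyadenylated mRNAs. The labels do not say whether the libraries were made from poly(A)-selected or ribosomal RNA-depleted RNA, and the capture of mRNAs without a tail depends on that step.

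The stem-loop sequences are shown because they are the feature the genes share beyond their proteins. In the GENCODE M21 transcripts (GRCm38), a 16-base stem-loop pattern was searched on the transcript strand after the stop codon: GG, any 2 bases, CTTTT, any base, AG, any 2 bases and CC. It was found in 43 of the 67 members and lay 21 to 58 bases after the stop codon, with a median of 31. Over all protein-coding genes with transcripts the pattern was searched anywhere in any protein-coding transcript, not only after the stop codon. Counted in this wider way it was found in 72 of 21901 genes (0.329%), of which 44 were members. Examples from each class follow, with 5 bases on either side in lower case and the 16 matching bases in capitals.
Hist1h1c: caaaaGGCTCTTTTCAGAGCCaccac
Hist2h2aa1: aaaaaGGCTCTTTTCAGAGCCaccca
Hist2h2aa2: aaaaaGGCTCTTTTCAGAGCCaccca
Hist3h2a: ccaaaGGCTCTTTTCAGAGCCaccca
Hist1h2bk: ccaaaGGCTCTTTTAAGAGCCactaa
Hist1h3c: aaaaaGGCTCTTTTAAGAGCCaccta
Hist1h4i: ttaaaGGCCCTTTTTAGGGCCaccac
Hist1h4h: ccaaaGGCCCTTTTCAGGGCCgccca
Hist1h4b: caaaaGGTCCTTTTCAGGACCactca

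The stem-loops differed by class. The form printed for Hist1h1c and the H2A genes was found in 25 members, of which 3 encode H1, 10 H2A, 7 H2B and 5 H3. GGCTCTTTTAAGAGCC was found in 6 members of H1, H2B and H3, and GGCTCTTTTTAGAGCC in 1 H2A gene. No H4 gene had any of these: the H4 members had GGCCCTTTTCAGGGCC (7), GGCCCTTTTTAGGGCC (2) or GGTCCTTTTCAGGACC (2), and these stems occurred in H4 genes alone. For the members printed above, the 16 bases lie in GRCm38 at chr13:23739512-23739527 (Hist1h1c), chr3:96246032-96246047 (Hist2h2aa1), chr3:96239784-96239799 (Hist2h2aa2), chr11:58955172-58955187 (Hist3h2a), chr13:22036300-22036315 (Hist1h2bk) and chr13:22040966-22040981 (Hist1h4i), all in the annotated 3′ UTR.

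Of the 24 members without the pattern, 17 have under 60 annotated bases after the stop codon, so the annotated transcript may end before the place where a stem-loop would lie. The other 7 have a longer annotated 3′ UTR, and among them is Hist1h2bc, whose annotated transcript has 2 exons. The 43 members with a stem-loop also fell into those whose annotated transcript ends under 100 bases after it (21 members) and those that run on for 100 bases or more (22 members). The polyadenylation hexamer AATAAA occurred within the last 40 bases of 0 of the 21, of 9 of the 22, of 0 of the 17 and of 5 of the 7. The median of the members' mean levels was 1.02, 0.392, 0.758 and 0.678 TPM in these sets, in the same order. TPM is a transcript level corrected for length and given relative to the total of the library.

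**Figure D1:**
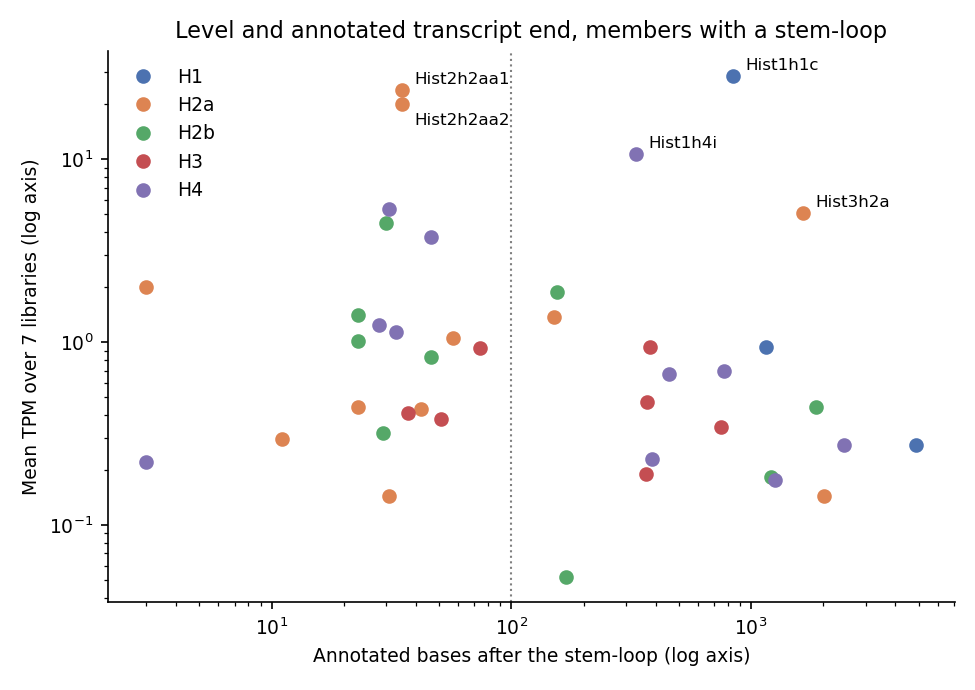
Mean TPM over the 7 libraries (vertical, log axis) against the number of annotated bases after the stem-loop (horizontal, log axis), 1 point for each member with a stem-loop and a level above 0, coloured by class. The dotted line marks 100 bases; the highest member among those with long ends is Hist1h1c and among those with short ends Hist2h2aa1.

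Promoters of 62 members were found in the RefSeq table (GRCm38.p6, 250 bases before to 50 after the start), and 3 motifs were searched on both strands. The first listed promoter of each member was counted. The H2B gene Hist1h2be has a further one (chr13:23585921-23586220), not counted, which holds the octamer ATTTGCAT described below. CCAAT, the binding sequence of the factor NF-Y, was in 53 of the 62 (85.5%, against 37.4% of all 32851 promoters in the table). It was in every H1, H2A, H2B and H3 promoter found but in 3 of 12 H4 promoters. TATAAA was in 35 of 62 (56.5%, against 13.6%). The octamer ATTTGCAT, bound by Oct-1, was in 13 of 62 (21%, against 1.74%), namely 7 of 18 H2A and 6 of 16 H2B promoters, and in 0 of the H1, H3 and H4 promoters. H2A and H2B genes often lie as divergent pairs that share a promoter, so these are not independent counts.

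Near-identical copies limit what can be said of single genes. When each member's transcript was compared with all other annotated transcripts in stretches of 31 bases, the median member had 41.5% of its stretches to itself, 39 of the 67 had under 50%, and 3 (Hist1h2bq, Hist2h2aa2 and Hist2h3c1) had none. Reads from such stretches are shared out among the copies by the quantification, so sums by class are given before single genes. All 18 H2A genes and 3 others overlap an annotated antisense exon. Of the 22 antisense genes concerned, 19 were listed at 0 in all libraries, and the highest value of any was 0.43 TPM.

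Histone mRNA was a small part of these libraries. The 67 members summed to 151, 247 and 204 TPM in saline replicates 1, 2 and 3, to 144 TPM in the Cont sEV library, and to 119.9, 131 and 151 TPM in TIS sEV replicates 1, 2 and 3. All 3 TIS sEV sums were below all 3 saline sums, but barely so, since the lowest saline sum was 151.1 and the highest TIS sEV sum 150.6 TPM. The means were 200.7 ± 48.0 (SD, n = 3) in saline and 134 ± 15.5 (SD, n = 3) in TIS sEV. A sum over chosen members gets no p-value. The median tested gene of the table also differed between the groups, by −0.62 on the log2(TPM + 1) scale for TIS sEV minus saline, by −0.33 for Cont sEV minus saline and by −0.29 for TIS sEV minus Cont sEV. Differences below are therefore given relative to that gene. On this footing the summed histone mRNA differed by 0.060 between TIS sEV and saline, against −0.56 before it.

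TIS sEV replicate 2 stood apart from the other libraries, and the main results below are also given without it or on another scale. Ribosomal RNA made up 22.9% of its TPM, against 0.807% to 2.40% in the other 6 libraries, and nuclear protein-coding genes 28.6% against 56.8% to 74.7%. The labelled tissue was checked on epithelial markers (Epcam, Krt8, Krt18, Cdh1 and Krt19), which were all present and summed to between 514 and 4082 TPM, lowest in TIS sEV replicate 2. TPM keeps no read depth, so no counting error can be given.

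Among the classes, the H2A sum was the one that separated the TIS sEV from the saline libraries. Of all tested genes, 13.5% likewise had every TIS sEV library below every saline library, and 90.5% were lower as fitted. The H2A genes, whose protein pairs with H2B in the nucleosome, summed to 62.9, 99.7 and 78.2 TPM in saline, 40.9 in Cont sEV, and 35.9, 36.2 and 54.8 in TIS sEV. Every TIS sEV library, and the Cont sEV library, was below every saline library, and the means were 80.3 ± 18.5 and 42.3 ± 10.8 TPM (SD, n = 3 each). Relative to the median gene the H2A difference was −0.29. The separation ended under another scale: when TPM was rescaled so that nuclear protein-coding genes summed to 1000000 in each library, the H2A sum was 111, 135 and 105 in saline and 55.4, 127 and 86.1 in TIS sEV, where replicate 2 fell among the saline libraries. Division by median-of-ratios size factors likewise left the groups overlapping.

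The other classes overlapped between saline and TIS sEV. H1, the linker histone, summed to 21.001, 41.5 and 47.5 TPM in saline, 29.4 in Cont sEV and 25.6, 27.5 and 27.1 in TIS sEV. H2B summed to 33.4, 64.1 and 51.9 TPM in saline, 33.8 in Cont sEV and 33.4, 31.5 and 32.3 in TIS sEV. In both classes the saline libraries ranged widely, with replicate 1 lowest, while the TIS sEV libraries lay close together. H3 was the lowest class, at 6.97, 7.66 and 7.54 TPM in saline, 8.59 in Cont sEV and 6.17, 11.6 and 6.16 in TIS sEV. H4, its partner in the nucleosome core, stood at 26.8, 34.0 and 18.9 TPM in saline, 30.98 in Cont sEV and 18.8, 24.7 and 30.2 in TIS sEV. Replicate 2 was the highest of all 7 libraries for H3 and lay inside the saline range for H4. Relative to the median gene the differences of TIS sEV minus saline were 0.25 for H1, 0.062 for H2B, 0.66 for H3 and 0.52 for H4. Without TIS sEV replicate 2 they were −0.19, −0.34, −0.033 and 0.082, and that of H2A was −0.62.

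**Figure D2:**
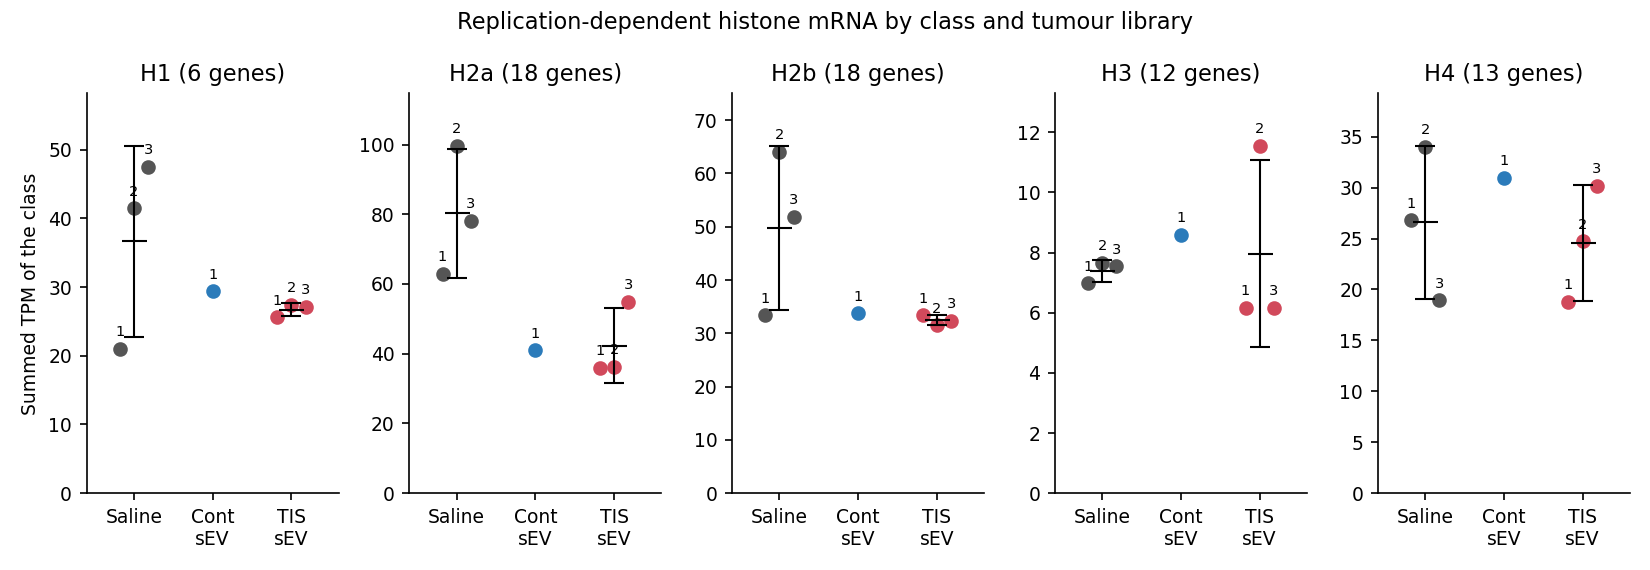
Summed TPM of each histone class (vertical, from 0) in saline, Cont sEV and TIS sEV libraries; points are libraries, numbered by replicate, and bars are the mean and SD of 3 libraries. The H2A panel is the one in which the TIS sEV points, 35.9 to 54.8, all lie below the saline points, 62.9 to 99.7.

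The composition of the histone mRNA pool moved with the class sums. H2A made up 41.6%, 40.4% and 38.3% of the summed histone mRNA in saline, 28.5% in Cont sEV and 29.9%, 27.6% and 36.4% in TIS sEV. These shares do not depend on how a library is scaled, and the vesicle libraries, Cont sEV included, all lay below the saline libraries. The near-identical copies Hist2h2aa1 and Hist2h2aa2 together held 31.6%, 30.9% and 31.4% in saline, 17.3% in Cont sEV and 21.8%, 18.9% and 29.3% in TIS sEV. The shares of the other 16 H2A genes overlapped between the groups, so the lower share lay in these copies and is not read for the class. The gap was narrow, with 29.3% in TIS sEV replicate 3 against 30.9% in saline replicate 2. How often other genes separate on such a share was not counted. A share also moves with the rest of the pool, so nothing further is read from it. H3 made up 4.62%, 3.10% and 3.70% in saline, 5.98% in Cont sEV and 5.14%, 8.79% and 4.09% in TIS sEV. The H3 shares of the 2 groups overlapped.

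A few genes carried most of this RNA. The 5 highest members, Hist1h1c, Hist1h2bc, Hist2h2aa1, Hist2h2aa2 and Hist1h4i, held between 53.3% and 73.1% of the summed histone TPM of a library. With Hist1h4n, Hist3h2a and Hist1h2bk added, the 8 highest held 59.0% to 83.1%. By their mean over all libraries, 5 members were at 10 TPM or more, 17 between 1 and 10, and 45 under 1. Above 0 in all 7 libraries were 43 members, and 4 were listed at 0 in all of them: Hist1h1t, Hist1h2aa and Hist1h2ba, known for their expression in testis, and Hist2h3c1, which has no sequence stretch of its own.

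**Figure D3:**
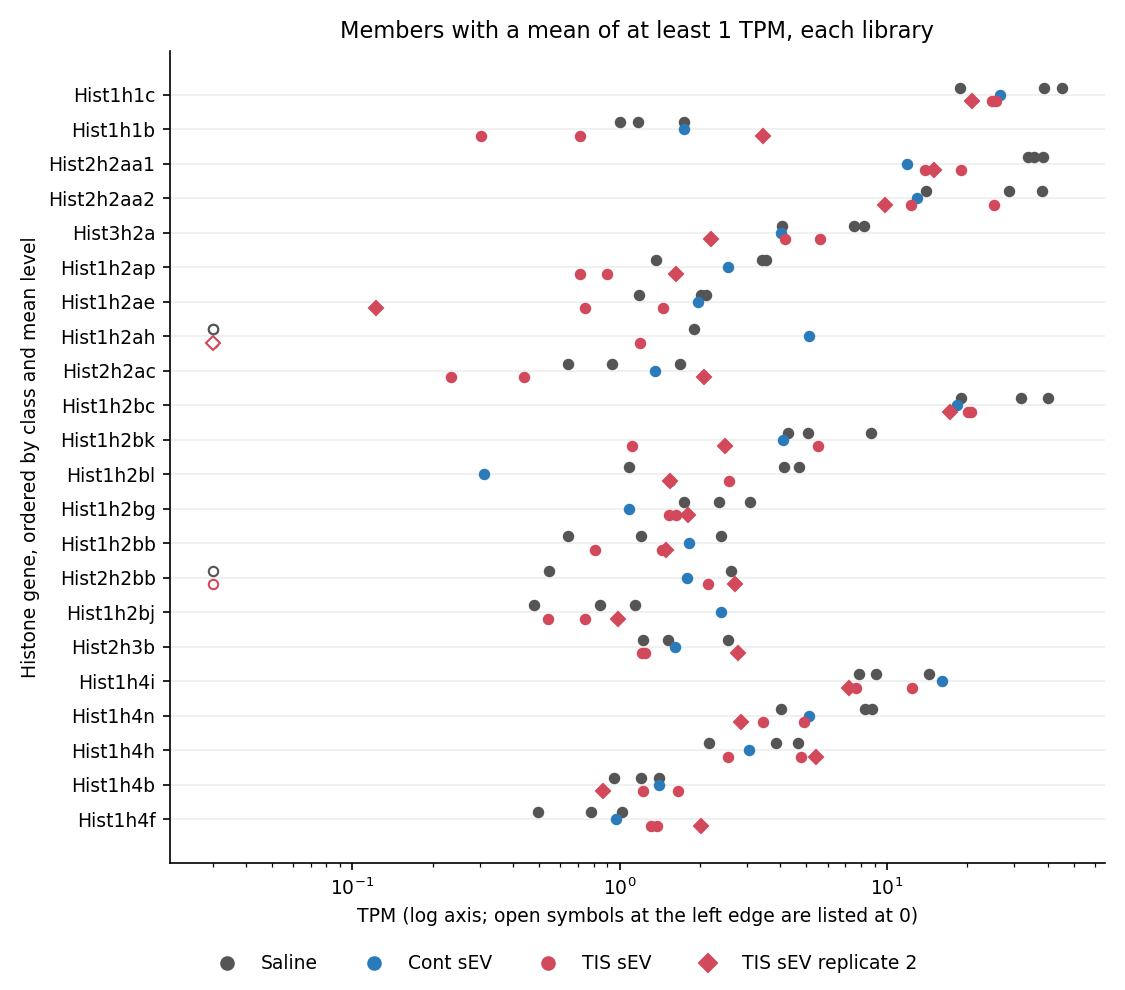
TPM (horizontal, log axis) of each member with a mean of at least 1 TPM, ordered by class and level, with 1 symbol per library; open symbols at the left edge are listed at 0. Hist2h2aa1 shows the TIS sEV libraries (13.9 to 18.9) apart from the saline libraries (33.7 to 38.2), and the other high members overlap.

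Most of the H2A mRNA came from a pair of genes. Hist2h2aa1 (ENSMUSG00000064220.6, chr3:96245497-96246082, plus strand) and Hist2h2aa2 (ENSMUSG00000063954.7, chr3:96239749-96240276, minus strand) have the same stem-loop and flanks, as printed above. Every 31-base stretch of Hist2h2aa2 is also in Hist2h2aa1, and 89.6% of those of Hist2h2aa1 are in Hist2h2aa2, so the pair is best read as a sum. The pair summed to 47.7, 76.3 and 64.1 TPM in saline, 24.9 in Cont sEV and 26.2, 24.9 and 44.1 in TIS sEV. The groups did not overlap (62.7 ± 14.4 against 31.7 ± 10.8 TPM, SD, n = 3 each), as was so in this direction for 13.5% of all tested genes. Scaled to nuclear protein-coding genes the 2 groups did overlap, at 84.0, 103 and 85.8 in saline and 40.4, 87.1 and 69.3 in TIS sEV. The other 16 H2A genes showed the same arrangement at a lower level: they summed to 15.2, 23.3 and 14.1 TPM in saline, 16.06 in Cont sEV and 9.72, 11.4 and 10.7 in TIS sEV. There too the TIS sEV libraries were below the saline libraries, while Cont sEV lay inside the saline range. After the rescaling they overlapped as well, at 26.8, 31.6 and 18.9 in saline and 15.0, 39.7 and 16.8 in TIS sEV. The non-coding read-through gene Gm20634, which contains nearly all of the sequence of both, was listed at between 0.49 and 1.69 TPM.

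Taken alone, Hist2h2aa1 was at 33.7, 38.2 and 35.4 TPM in saline, 11.9 in Cont sEV and 13.9, 15.0 and 18.9 in TIS sEV. All 3 saline libraries were above all 4 vesicle libraries. Its mean was 35.8 ± 2.29 in saline and 15.96 ± 2.61 TPM in TIS sEV (SD, n = 3 each). In the fit over all genes its relative difference was −0.51 (SE 0.65) and it did not pass, with an adjusted p of 0.476 (limma). The spread in that fit was the one shared by genes of its level, not its own. Hist2h2aa2 was at 14.0, 38.1 and 28.7 TPM in saline, 13.0 in Cont sEV and 12.3, 9.85 and 25.2 in TIS sEV, and there the groups overlapped.

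Hist1h1c (ENSMUSG00000036181.2, chr13:23738808-23740367, plus strand) encodes the linker histone H1.2 and was the highest member of all. It was at 18.8, 38.7 and 45.3 TPM in saline, 26.5 in Cont sEV and 24.7, 20.8 and 25.7 in TIS sEV. Saline replicate 1 was the lowest of the 7 libraries, so the groups overlapped (relative difference 0.19, SE 0.65, adjusted p = 0.680, limma). It was also one of the more separable members, with 88.6% of its sequence stretches found in no other transcript. Its annotated transcript of 1560 bases runs 840 bases past the stem-loop and has AATAAA near its end. The other H1 members were low: Hist1h1b (H1.5) was at 1.17, 1.75 and 1.00 TPM in saline, 1.75 in Cont sEV and 0.30, 3.44 and 0.71 in TIS sEV. Hist1h1e (H1.4) was at 0.57 to 0.85 TPM in every library from saline and Cont sEV, and at 0.42, 2.50 and 0.62 TPM in TIS sEV. In both, TIS sEV replicate 2 was the highest library and another TIS sEV library the lowest.

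Hist1h2bc (ENSMUSG00000018102.5, chr13:23684199-23692908, plus strand) held most of the H2B mRNA, at 18.9, 40.1 and 31.9 TPM in saline, 18.3 in Cont sEV and 20.6, 17.2 and 20.2 in TIS sEV. Its saline replicate 1 lay inside the TIS sEV range, and its relative difference was 0.053 (adjusted p = 0.605, limma). Hist1h2bk (chr13:22035870-22036345) was at 4.28, 5.06 and 8.74 TPM in saline, 4.08 in Cont sEV and 5.54, 2.48 and 1.12 in TIS sEV. Hist1h2bl was at 1.08, 4.67 and 4.14 TPM in saline, 0.31 in Cont sEV and 1.55, 1.54 and 2.57 in TIS sEV. Both overlapped between the groups, and only 24.7% and 11.4% of their sequence stretches are their own. Hist2h2bb was listed at 0.54, 2.62 and 0 TPM in saline, 1.78 in Cont sEV and 0, 2.70 and 2.14 in TIS sEV. Each group held both a library at 0 and one above 2 TPM, and its relative difference was 0.97 (SE 0.39, adjusted p = 0.595, limma). Hist2h2bb met the level filter of the test only through the TIS sEV libraries.

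The third H2A gene by level, Hist3h2a (chr11:58954685-58956830), which shares exons with Trim17, was at 4.06, 8.19 and 7.52 TPM in saline, 4.01 in Cont sEV and 4.16, 2.20 and 5.60 in TIS sEV. Its relative difference was −0.0029, next to that of the median gene. Trim17 itself was listed at 0.080 TPM or less. Hist1h2ap, another H2A gene, was at 3.40, 3.54 and 1.37 TPM in saline, 2.54 in Cont sEV and 0.90, 1.63 and 0.71 in TIS sEV. It overlapped between the groups and had the third lowest relative difference, −0.21 (SE 0.46, adjusted p = 0.476, limma).

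The H4 genes all encode one protein, and Hist1h4i (ENSMUSG00000060639.5, chr13:22040636-22041362, minus strand) was the highest of them. It was at 9.12, 14.4 and 7.90 TPM in saline, 16.05 in Cont sEV and 7.69, 7.21 and 12.4 in TIS sEV (relative difference 0.44, adjusted p = 0.867, limma). Hist1h4n was at 8.27, 8.77 and 4.04 TPM in saline, 5.13 in Cont sEV and 3.44, 2.86 and 4.89 in TIS sEV. Hist1h4h was at 3.84, 4.67 and 2.17 TPM in saline, 3.04 in Cont sEV and 2.55, 5.42 and 4.76 in TIS sEV. None of these separated the groups. Hist1h4f (chr13:23551258-23551648, minus strand) did, with 0.49, 0.78 and 1.02 TPM in saline, 0.97 in Cont sEV and 1.31, 2.02 and 1.38 in TIS sEV. Its relative difference was the highest of the tested members, 1.16 (SE 0.39), and did not pass (adjusted p = 0.490, limma). This gene reached the level filter of the test only through the TIS sEV libraries, where it is high, so its separation and rank are in part set by the filter.

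The H3 genes were low throughout. Hist2h3b was at 2.54, 1.22 and 1.51 TPM in saline, 1.61 in Cont sEV and 1.21, 2.77 and 1.25 in TIS sEV. Hist1h3i and Hist2h3c2 were each between 0.30 and 1.61 TPM in every library. The groups overlapped for all 3, and their relative differences were 0.59, 0.76 and 0.68.

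The test across genes took every gene that reached 1 TPM in 3 or more libraries, which gave 12058 genes and 26 of the 67 members: 2 H1, 9 H2A, 6 H2B, 3 H3 and 6 H4. Of the 41 members left out, 37 were above 0 somewhere, with a highest value of 2.50 TPM. The filter depends on the groups, since 8 of the 26 would have failed it without the TIS sEV libraries and 9 without the saline libraries. Without the Cont sEV library 3 would have failed it, Hist1h2ah, Hist1h4a and Hist2h2ac. Between TIS sEV and saline, 0 of the 26 were called at an adjusted p under 0.05 (limma), against 0.514% of all tested genes, and 0 had an unadjusted p under 0.05, against 10.3%. The lowest adjusted p was 0.476. The standard errors of the 26 differences ran from 0.31 to 0.66 on the log2 scale. In other fits the number of members with an unadjusted p under 0.05 (limma) was not 0. It was 4 without TIS sEV replicate 2, 3 without replicate 1 and 1 with size factors. The share of all tested genes is not given for those fits.

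As fitted, 20 of the 26 were lower and 6 higher in TIS sEV, and of all tested genes 90.5% were lower. Relative to the median gene 19 of 26 lay above it, with a median of 0.42. The 8 that met the level filter only with the TIS sEV libraries all lay above the median gene, at 0.15 to 1.16. Of the 9 that met it only with the saline libraries, Hist1h2ap and Hist1h2ae lay below the median gene and the others above. The counts above the median gene, here and below, are thus in part set by the filter, and no direction is read from them. Over all tested genes the median is 0 and the share above it 50%, by construction. On the log2(TPM + 1) scale a low gene changes less, and so tends to lie above a median that is itself below 0: among all tested genes with a mean under 1 TPM, 85% lay above it. Between 1 and 10 TPM, 11 of 16 members (68.8%) lay above it against 50% of all tested genes, and at 10 TPM or more 3 of 5 (60%) against 48.2%. Without TIS sEV replicate 2 both shares turned, to 6 of 16 (37.5%) against 44.9% and to 1 of 5 (20%) against 55.6%. By class, the median relative difference was 0.36 for H1, −0.0029 for H2A, 0.22 for H2B, 0.68 for H3 and 0.63 for H4. Without TIS sEV replicate 2 these medians were −0.28, −0.28, −0.18, 0.078 and 0.19. Hist1h3i, Hist2h3c2 and Hist1h4a had a mean under 1 TPM, where most genes lie above the median gene. Hist2h3c2, Hist1h4a and Hist1h4f met the filter only with the TIS sEV libraries. No rise of H3 or H4 is therefore read from these medians.

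This position depended on TIS sEV replicate 2. Without it, 10 of 26 members lay above the median gene and their median was −0.14. Without TIS sEV replicate 1, on the other hand, 24 of 26 did, with a median of 0.81. With size factors or with the rescaling to nuclear protein-coding genes, both with all 7 libraries, 19 of 26 lay above it and the median was 0.34. By level, with size factors, this was 4 of 5 members under 1 TPM against 48.4% of all tested genes. It was 11 of 16 against 41.3% between 1 and 10 TPM, and 4 of 5 against 60% at 10 TPM or more. With 0.1 in place of 1 added to the TPM, 19 of 26 lay above the median gene, with a median of 0.32. No member was called between TIS sEV and saline in any of these fits.

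**Figure D4:**
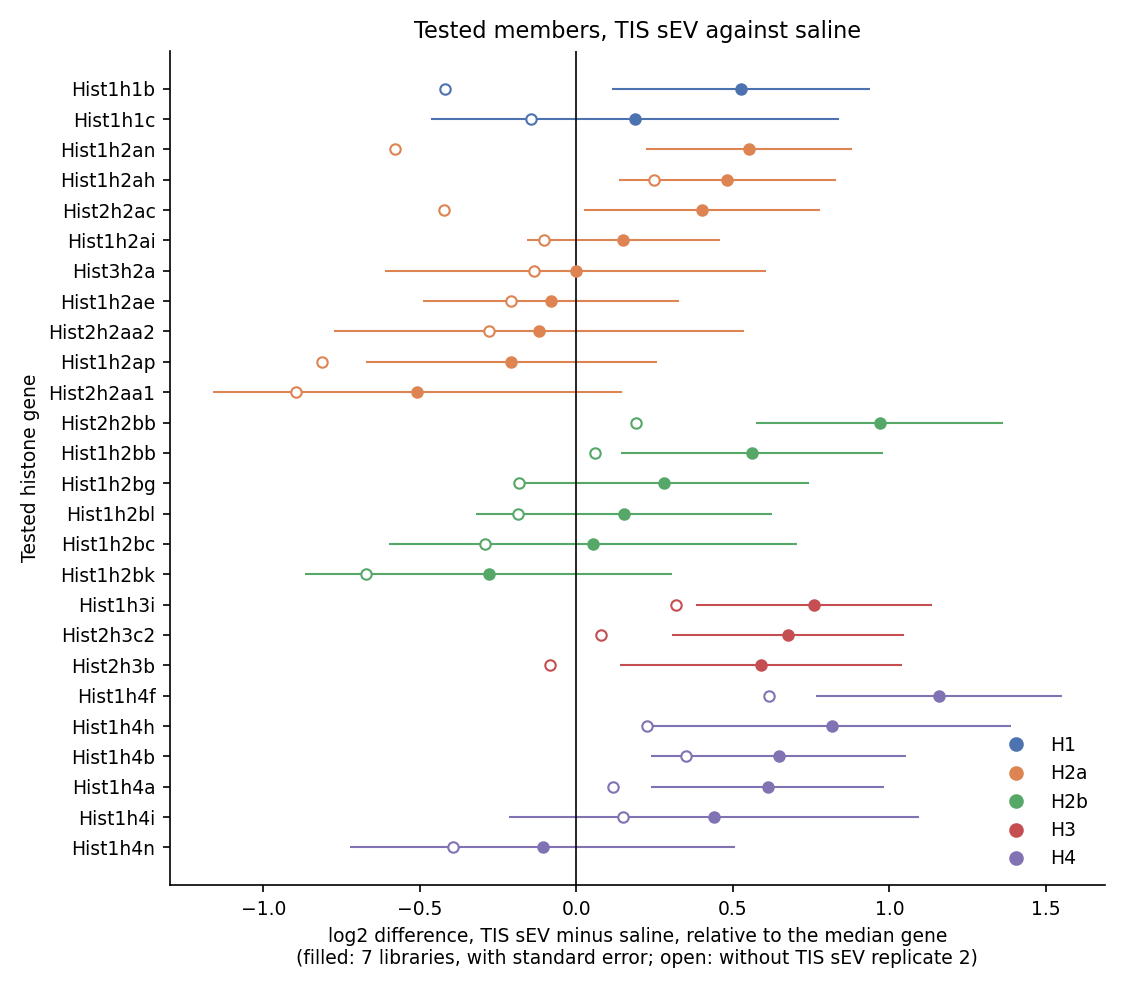
Relative log2 difference of TIS sEV minus saline (horizontal) for the 26 tested members, coloured by class; filled points use all 7 libraries, with their standard error as bars, and open points leave out TIS sEV replicate 2. All 26 open points lie to the left of the filled ones, and the members above 0 drop from 19 to 10.

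Of the 26 tested members, 1 was lower in every TIS sEV library than in every saline library (Hist2h2aa1), as were 13.5% of all tested genes, and 1 was higher in every one (Hist1h4f), as were 0.862% of tested genes. Since Hist1h4f passed the filter only through the TIS sEV libraries, nothing is read from its count. With size factors none was lower and 2 were higher, Hist1h4b and Hist1h4f, where 12.3% and 11.4% of tested genes were. With the rescaling to nuclear protein-coding genes the same counts were found, against 18.6% and 5.46%.

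In the comparisons with the single Cont sEV library, Hist1h2ah was the member called. This H2A gene (chr13:22035164-22035568, minus strand) was listed at 0, 1.91 and 0 TPM in saline, 5.10 in Cont sEV and 0, 0 and 1.20 in TIS sEV. It was 1 of 26 members called for Cont sEV against saline, where 0.207% of tested genes were called (relative difference 2.43, SE 0.49, adjusted p = 0.0105, limma). Likewise it was 1 of 26 for TIS sEV against Cont sEV, where 0.224% were (relative difference −1.94, SE 0.49, adjusted p = 0.00411, limma). Both comparisons use the same Cont sEV library, which has no replicate and was assumed to vary like the others. Hist1h2ah met the level filter only with that library, where it is high, so the calls describe this library and support nothing further. Only 8.80% of the sequence stretches of Hist1h2ah are its own, and 88.0% are shared with Hist1h2ad, which was at 0.43, 1.01 and 0.86 TPM in saline, 0.15 in Cont sEV and 0.23, 0 and 0.35 in TIS sEV. The call was lost for Cont sEV against saline without saline replicate 1 (adjusted p = 0.451, limma) or 3 (0.827), and for TIS sEV against Cont sEV without saline replicate 3 (0.0888). It was lost in both with every other scale, filter, pseudocount and model tried.

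The remaining members did not pass in either comparison. The Cont sEV library had the lowest Hist2h2aa1 and Hist1h2bl values of all 7 and the highest Hist1h4i value. Relative to the median gene, Cont sEV minus saline was −1.18 for Hist2h2aa1 (SE 0.92), −1.25 for Hist1h2bl (SE 0.67) and 0.95 for Hist1h4i (SE 0.93). The Cont sEV library was the highest for 11.1% of members above 0 and for 10.1% of nuclear protein-coding genes above 0.

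In TIS sEV replicate 2 the lower members ranked differently from other genes. Of the 63 members above 0 somewhere, 19 (30.2%) had their highest value of the 7 libraries in it, against 2.99% of 16695 nuclear protein-coding genes above 0. Split by level, this was 13 of 41 members (31.7%) against 7.33% of genes with a mean under 1 TPM, 6 of 17 (35.3%) against 0.851% between 1 and 10 TPM, and 0 of 5 against 0.269% at 10 TPM or more. By class it was 4 of 5 H1, 2 of 17 H2A, 1 of 17 H2B, 6 of 11 H3 and 6 of 13 H4 members. For 7 of the 19 the value was at least 1.5 times that of the next library. Among these were Hist1h4m, at 1.38 TPM against 0.17 at most elsewhere, Hist1h1e, at 2.50 against 0.85, and Hist1h2an, at 3.36 against 1.35.

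The members below the 8 highest summed to 39.9, 55.3 and 34.5 TPM in saline, 44.8 in Cont sEV and 27.6, 53.9 and 36.6 in TIS sEV. After the rescaling to nuclear protein-coding genes they summed to 70.2, 75.0 and 46.2 in saline, 60.7 in Cont sEV and 42.6, 188 and 57.4 in TIS sEV, so that replicate 2 was above all others and replicates 1 and 3 within or below the saline range. All members together gave 266, 335 and 273 in saline, 195 in Cont sEV and 185, 460.0 and 237 in TIS sEV on that scale.

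Division genes did not follow the lower histone genes in this library. The sum of the 8 highest members was, like that of the division genes, at its lowest there, at 77.6 TPM against 92.3 to 192 elsewhere. A list of 15 S phase and division genes (such as Pcna, Mcm2 to Mcm7, Rrm2 and Mki67) summed to between 392 and 979 TPM in the other 6 libraries and to 152 in TIS sEV replicate 2. The ratio of histone to S phase TPM was 0.386, 0.284 and 0.291 in saline, 0.147 in Cont sEV and 0.170, 0.866 and 0.312 in TIS sEV. The markers of dividing cells (Mki67, Top2a, Ccna2 and Cdk1) were all above 0, and summed to between 147 and 354 TPM in saline, 370 in Cont sEV and between 52.5 and 276 in TIS sEV. Of these 4, 0 were called between TIS sEV and saline. Cont sEV and TIS sEV replicate 1 had the lowest ratios and the first of these the most S phase mRNA.

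As a sum, the RNAs that carry no poly(A) tail were high in the same library. A list of 11 such RNAs, among them the signal recognition particle RNAs Rn7s1 and Rn7s2 and the transcription regulator Rn7sk, summed to 55939 TPM in TIS sEV replicate 2 and to 1004 to 5302 TPM elsewhere. Of the 11 entries tested, 11 lay above the median gene with a median of 1.95. Called higher in TIS sEV than in saline were 2, Rn7s1 and Rn7s2, where 0.514% of all tested genes were called in either direction. Both overlapped between the groups: Rn7s1 was at 1516 TPM in saline replicate 1 and 933 in TIS sEV replicate 1, and Rn7s2 at 1535 and 635. In TIS sEV replicate 2 they stood at 27463 and 21784 TPM. Without replicate 2 the median of the 11 entries was 0.31. Telomerase RNA (Terc) was listed at 0. Vaultrc5 was highest in saline replicate 1 (46.4 TPM, against 40.9 in TIS sEV replicate 2) and Rny3 in TIS sEV replicate 3 (7.37 against 4.73). The remaining RNAs of the list were highest in replicate 2. Small nucleolar RNAs summed to 17585 TPM in replicate 2, against 192 to 1194 TPM elsewhere. The part of the library's RNA make-up in the histone values was not tested.

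**Figure D5:**
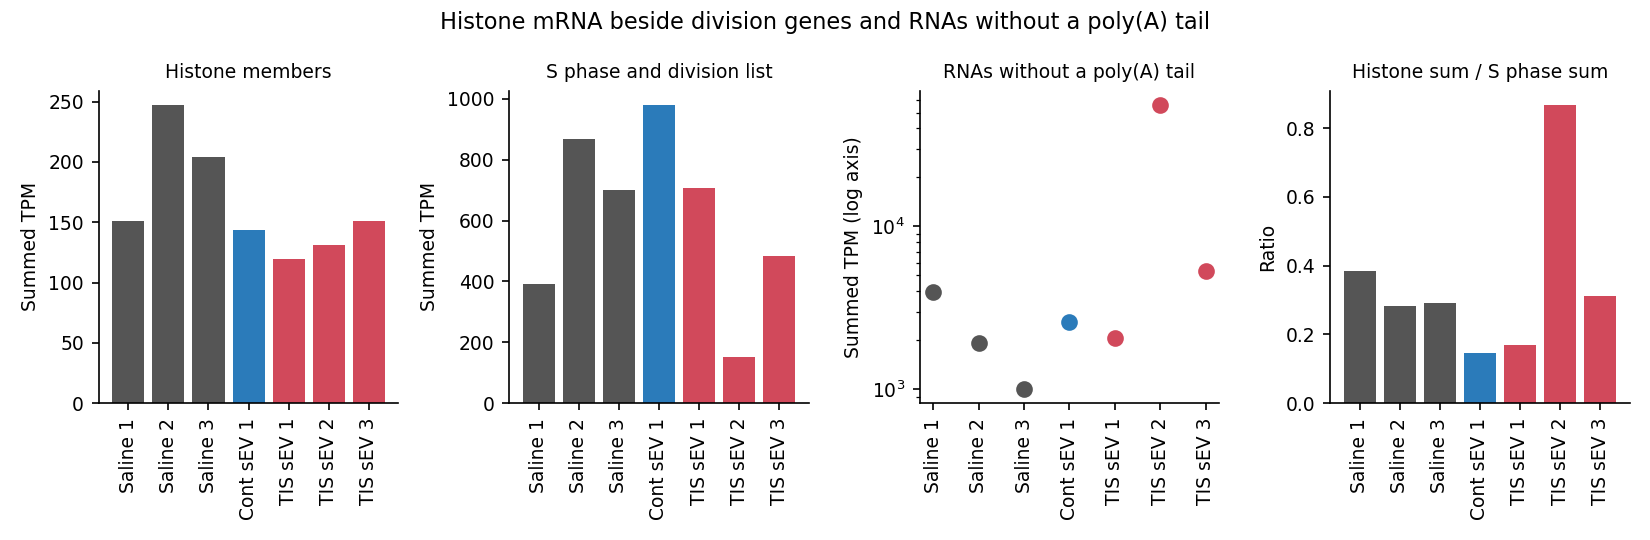
From left to right, summed TPM of the 67 histone members, of 15 S phase and division genes and of 11 RNAs without a poly(A) tail (log axis), and the ratio of the first to the second, for each of the 7 libraries. TIS sEV replicate 2 has the lowest S phase sum, the highest sum of RNAs without a tail and the highest ratio, 0.866.

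The other genes of histone supply gave no call. The genes listed as replacement histones, among them H3f3b, H2afx and Cenpa, were together far more abundant in these libraries than the 67 members. These 11 genes summed to 1530, 2417 and 2489 TPM in saline, 1866 in Cont sEV and 1556, 633 and 1437 in TIS sEV. The summed members came to 9.88%, 10.2% and 8.20% of that in saline, 7.70% in Cont sEV and 7.71%, 20.8% and 10.48% in TIS sEV, again with replicate 2 highest. H3f3b, which encodes H3.3, was at 501, 642 and 731 TPM in saline and 451, 157 and 358 in TIS sEV (adjusted p = 0.476, limma). Of the 9 tested, 3 lay above the median gene, with a median of −0.14.

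Genes for the 3′ end formation and decay of histone mRNA (15 tested of 17 listed) had 7 above the median gene, with a median of −0.014. Slbp was at 28.3, 41.1 and 44.4 TPM in saline, 36.8 in Cont sEV and 31.03, 8.99 and 21.8 in TIS sEV, and its relative difference was −0.36 (SE 0.65, adjusted p = 0.479, limma). Replicate 2 had the lowest Slbp value of the 7 libraries. Regulators of histone gene transcription (7 tested of 8) had 3 above the median gene, with a median of −0.22, which was the value of Npat, the coactivator at histone loci. Histone chaperones, which carry new histones to DNA, had 7 of 15 above it, with a median of −0.038, and the S phase genes 2 of 15, with a median of −0.26. Without TIS sEV replicate 2 the S phase median was −0.10 and that of the chaperones 0.048, on the other side of the median gene. With size factors the medians of the replacement histones, the 3′ end genes and the chaperones were 0.027, 0.059 and 0.098, so no direction is read for these lists. In these 4 lists and the replacement histones 0 genes were called in either direction.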

How the data were processed

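The authors deposited 1 table of TPM for 55487 genes in 7 libraries, and all 7 columns were used. Salmon 1.4.0, on build GRCm38.p6, is named in the submitters' processing notes, beside Trim Galore 0.6.6 and other tools; the transcript annotation is not given in the sources used here. Gene types, coordinates and transcripts came from GENCODE M21, where 55227 identifiers were found. limma 3.58.1 in R 4.3.3 was fitted to log2(TPM + 1) with 1 mean per group and an intensity trend (4 residual degrees of freedom; prior degrees of freedom infinite), with two-sided tests and Benjamini-Hochberg adjustment over all 12058 tested genes at 0.05. The fit was tested on simulated data. Alternatives changed the pseudocount, the filter, the scaling, the intensity trend, the replicate block and the libraries used. Members and lists were chosen with earlier results of these data known. Described by name are the 3 highest members of each class, those called, and the 3 highest and 3 lowest differences of TIS sEV minus saline; others named were chosen after their values were seen.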

Additional observations from a re-analysis of the deposited data

How the results depend on the processing

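No member was called between TIS sEV and saline under any alternative run. The call of Hist1h2ah was the value that changed: with a pseudocount of 0.1, no filter on low values, size factors, rescaling to nuclear protein-coding genes or no intensity trend, 0 members were called in each of the comparisons with Cont sEV. Leaving out 1 replicate gave between 0 and 1 in each. The replicate number as a block likewise gave 0 members in each of the 3 comparisons, and 14 genes of all tested, against 62, between TIS sEV and saline. Same-numbered saline and TIS sEV libraries did not deviate together (correlations −0.38, −0.0085 and 0.080), and not every library correlated best with its own number. With 3 libraries per group, and TIS sEV replicate 2 apart from the rest, this check cannot exclude a pairing or batch by number. Over all genes, 7 calls were left without saline replicate 3 and 353 were made without TIS sEV replicate 1.

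Leaving out 1 replicate gave relative class differences of −0.19 to 0.56 (H1), −0.62 to 0.090 (H2A), −0.34 to 0.32 (H2B), −0.033 to 1.08 (H3), 0.082 to 0.97 (H4) and −0.35 to 0.42 (all members), each lowest without TIS sEV replicate 2 and highest without replicate 1. Among named members the sign changed in 30 of 234 refits, and none of these members had passed. Without a filter the relative difference was −0.30 for Hist1h1c, −0.44 for Hist1h2bc, −0.34 for Hist1h2bl, −0.051 for Hist1h4i and −0.0086 for Hist1h2ah, which was −0.0088 with size factors. Hist2h2aa2 was at 0.011 (pseudocount 0.1) and 0.030 (size factors), and Hist3h2a at 0.040 in both of these and 0.030 when rescaled. Leave-one-out ranges that crossed 0 were −0.42 to 1.17 (Hist1h1b), −0.15 to 0.44 (Hist1h1c), −0.81 to 0.13 (Hist1h2ap), −0.29 to 0.29 (Hist1h2bc), −0.67 to 0.24 (Hist1h2bk), −0.19 to 0.52 (Hist1h2bl), −0.49 to 0.21 (Hist1h4n), −0.36 to 0.28 (Hist2h2aa2), −0.085 to 1.00 (Hist2h3b) and −0.14 to 0.22 (Hist3h2a). The causes were not tested, and depth limits the low members in a way TPM does not show.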

Other observations

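The processed pseudogene Hist1h2al (chr13:51202727-51203065, GRCm38), which is not a member and was chosen after its values were seen, had lower values in the vesicle libraries. It was at 12.9, 27.3 and 23.6 TPM in saline, 5.84 in Cont sEV and 7.46, 8.05 and 9.01 in TIS sEV. The saline and TIS sEV groups did not overlap (21.2 ± 7.48 against 8.17 ± 0.78 TPM, SD, n = 3 each), as was so in this direction for 13.5% of all tested genes, and the relative difference was −0.60 (SE 0.66, adjusted p = 0.476, limma). After rescaling to nuclear protein-coding genes the groups overlapped, at 22.6, 36.9 and 31.6 in saline and 11.5, 28.2 and 14.1 in TIS sEV.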
